A study of Mus musculus with 6 samples.

Results

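The metabolic nuclear receptors of liver were taken by gene symbol, as 9 genes matched exactly once each among the 23282 rows of the count files: Ppara, Ppard, Pparg, Nr1h3, Nr1h4, Rxra, Hnf4a, Nr3c1 and Thrb. All 9 passed the filter on low counts and were among the 12505 rows tested. They were measured in livers of male C57BL/6N mice that began a high-fat diet at 8 weeks of age and ate it for 12 weeks. In the last 4 weeks, after 8 weeks of diet alone, one group received atractylodin by mouth at 10 mg/kg on 5 days per week and the other received vehicle. Each group had 3 libraries, and no group without the diet was part of the comparison. Whether the libraries of a group come from different animals is not stated in the labels, and the p-values refer to the spread of the libraries alone.

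Nuclear receptors are transcription factors that many small lipophilic molecules switch on or off. RXR alpha, encoded by Rxra, is the shared partner with which the PPARs, LXR alpha (Nr1h3), FXR (Nr1h4) and thyroid hormone receptor beta (Thrb) bind DNA, whereas HNF4 alpha and the glucocorticoid receptor (Nr3c1) form pairs with themselves. In liver PPAR alpha drives fatty acid oxidation in fasting, LXR alpha responds to oxysterols, FXR to bile acids, and HNF4 alpha maintains the hepatocyte programme.

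Vehicle 1 was the shallowest library, with a total of 1831461 counts, and the other 5 held 9871762 to 12565393. The 9 genes together had 2832 counts in vehicle 1 and 16650 to 21738 in the others. Levels are CPM, library-size scaled counts after TMM, a method that sets the bulk of genes level between libraries. QuantSeq reads the 3' end of a transcript, so CPM is not divided by gene length, and levels of different genes are compared as transcript tags. A gene was called where edgeR's quasi-likelihood test gave an adjusted p below 0.05 over all tested rows. Of these rows 490 were higher and 416 lower with atractylodin, together 7.25% of rows, and scaling by total counts alone gave 312 higher and 707 lower. These were 906 calls, and leaving out 1 library gave 494 (vehicle 1) or 467 (vehicle 3).

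Hnf4a was the one receptor of the 9 called between the groups, and it was higher with atractylodin. Hnf4a encodes HNF4 alpha, which binds promoters of apolipoprotein, coagulation factor and gluconeogenic genes (GRCm38 chromosome 2, 163506808 to 163572910). It stood at 462, 439 and 533 CPM in atractylodin livers, against 321, 270 and 291 CPM in vehicle livers. All 3 atractylodin libraries lay above all 3 vehicle libraries. The mean was 478 ± 49.2 CPM with atractylodin and 294 ± 25.7 CPM with vehicle (SD, n = 3 each). This is a log2 fold change of 0.71 ± 0.10 (SE), or 1.63-fold, with a 95% interval of 0.49 to 0.92 on the log2 scale and an adjusted p of 0.000405. Its p ranked 47 of the 12505 tested rows. It was called under each of the 11 alternatives tried, with log2 fold changes of 0.62 to 0.77 and adjusted p of 9.49e-11 to 0.00614, and without the shallow vehicle 1 it was 0.77 ± 0.12 (SE, adjusted p = 0.00285). One call among 9 genes compares with 3.92% of all rows called higher and 3.33% called lower.

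The Hnf4a locus has 2 annotated groups of transcripts that begin 40.3 kb apart, and 3' tags do not tell them apart where they share their end. The start further upstream is that of the promoter known as P2, and the nearer one is P1, the main promoter of adult liver. The antisense gene Hnf4aos (163493807 to 163541720) covers the P2 start, and its higher coordinate lies 31.2 kb before the 3' end of Hnf4a. The small RNA gene Gm25881 also lies within Hnf4a on its own strand. No other annotated gene lies within 500 bases of the outermost annotated 3' end of Hnf4a, and the other annotated ends of its transcripts were not searched. The 250 bases before each start are shown because the called rise cannot be assigned to either promoter from these counts. They are from RefSeq on GRCm38.p6, plus strand, 5' to 3', at chr2:163506607-163506856 for P2 and chr2:163546905-163547154 for P1, and capitals mark matches to GTTAAT, the start of the motif of HNF1 factors.
P2 window: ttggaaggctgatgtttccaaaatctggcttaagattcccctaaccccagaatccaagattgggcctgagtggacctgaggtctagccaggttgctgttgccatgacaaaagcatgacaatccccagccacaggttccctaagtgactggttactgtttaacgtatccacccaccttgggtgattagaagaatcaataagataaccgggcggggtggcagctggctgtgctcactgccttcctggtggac
P1 window: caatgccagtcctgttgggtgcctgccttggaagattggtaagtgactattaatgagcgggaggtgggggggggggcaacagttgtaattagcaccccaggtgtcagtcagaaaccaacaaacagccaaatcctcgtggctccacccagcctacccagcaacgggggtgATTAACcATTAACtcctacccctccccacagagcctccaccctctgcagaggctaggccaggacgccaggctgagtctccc
The P1 window held GTTAAT on the minus strand at 81 and 74 bases before the start, and the P2 window held none. Of 32851 windows of the same kind 6.43% held GTTAAT on either strand. Neither Hnf4a window held AGGTCA, the core of RXR partner sites (14.0% of all windows), AGAACA, the core of glucocorticoid receptor sites (16.1%), or CAAAGTCCA, an HNF4 motif (0.384%), on either strand. Among the 8 members with a RefSeq window, AGGTCA was found before the second start of Rxra, the first and second starts of Pparg, the first start of Thrb and the start of Nr1h4. AGAACA was found before the second start of Thrb, at 23 bases on the minus strand and 7 on the plus strand. GTTAAT was also found before Nr1h4 and before the first start of Thrb.

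Ppara, the most abundant of the 9 genes, had a higher estimate with atractylodin but was not called. It encodes PPAR alpha, the fatty acid sensor that fibrate drugs act on (chromosome 15, 85734983 to 85802819). Its values were 806, 806 and 707 CPM in atractylodin livers, against 650, 607 and 625 CPM in vehicle livers. The groups did not overlap. The log2 fold change was 0.30 ± 0.09 (SE), with a 95% interval of 0.10 to 0.50 and an adjusted p of 0.0593. It passed in 3 of 11 alternatives, namely DESeq2 (adjusted p = 0.0477), no filter on low counts (adjusted p = 0.0235) and leaving out atractylodin 3 (adjusted p = 0.0405), and the adjusted p reached 0.186 in the others.

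The other PPAR genes were far less abundant. Pparg encodes PPAR gamma, the regulator of fat cell formation, which is low in lean liver and known to increase in fatty liver (chromosome 6, 115360951 to 115490399). It stood at 23.3, 25.1 and 26.97 CPM with atractylodin, against 12.4, 26.6 and 25.5 CPM with vehicle. Vehicle 1 was the low library, with 23 counts, whose exact 95% Poisson interval of 7.85 to 18.6 CPM lies below the other vehicle libraries and covers counting error only. The log2 fold change of 0.12 ± 0.19 (SE, adjusted p = 0.778) turned to -0.05 without vehicle 1. Ppard encodes PPAR delta, a broadly expressed fatty acid receptor (chromosome 17, 28232700 to 28301474). Its 3.29, 4.49 and 3.59 CPM with atractylodin overlapped the 1.08, 4.04 and 2.99 CPM with vehicle. In vehicle 1 this was 2 counts, below the floor of 3 counts at 1.61 CPM. The 95% interval of its log2 fold change, -0.48 to 1.03, was the widest of the 9 and does not exclude a change of the size estimated for Hnf4a.

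**Figure D1:**
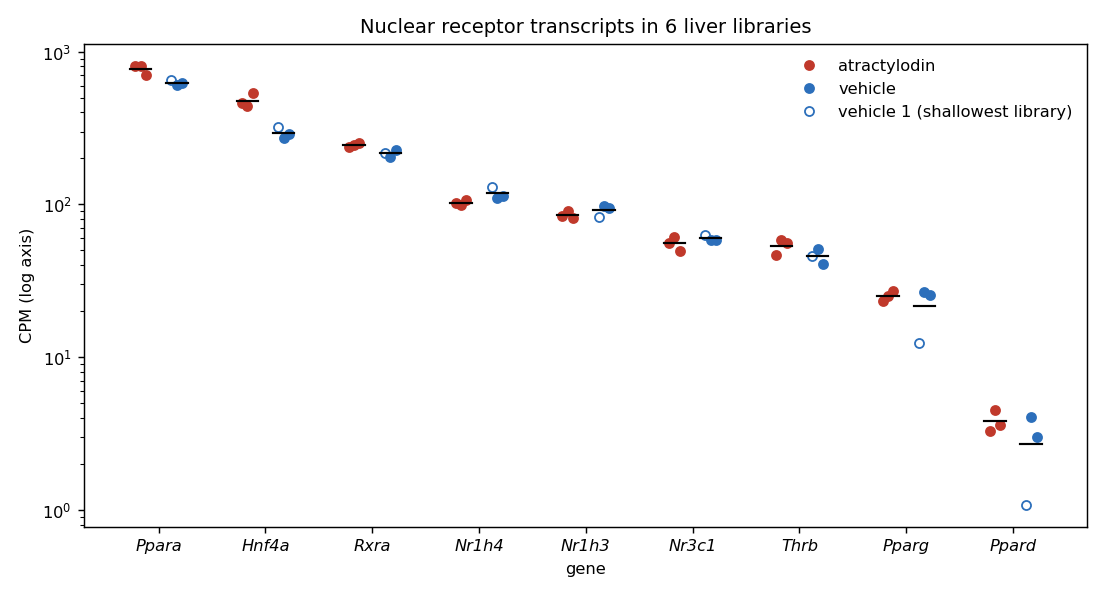
CPM (log axis) of each of the 9 receptor genes in every library, ordered by mean level, with atractylodin in red left of vehicle in blue, open circles for vehicle 1 and bars for group means. The groups lie apart for Hnf4a, Ppara, Rxra and Nr1h4, as for 26.2% of all tested rows. The open circle of Pparg at 12.4 CPM lies below the other libraries.

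Rxra, encoding the shared partner RXR alpha (chromosome 2, 27676440 to 27762957), had 237, 244 and 251 CPM with atractylodin, against 219, 204 and 227 CPM with vehicle. The groups did not overlap, yet the log2 fold change of 0.17 ± 0.09 (SE) had a 95% interval of -0.01 to 0.36 and an adjusted p of 0.274. Thrb encodes the main thyroid hormone receptor of hepatocytes (chromosome 14, 17660261 to 18038090). It stood at 46.5, 58.6 and 55.5 CPM with atractylodin, against 45.8, 50.9 and 40.9 CPM with vehicle. The groups overlapped, with a log2 fold change of 0.22 ± 0.12 (SE, 95% interval -0.04 to 0.48, adjusted p = 0.315).

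The sterol and bile acid receptors had lower estimates and were not called. Nr1h4 encodes FXR, which represses bile acid synthesis (chromosome 10, 89454234 to 89533585). It had 102, 98.4 and 106 CPM with atractylodin, against 130, 110 and 114 CPM with vehicle. Each atractylodin library lay below each vehicle library, with a log2 fold change of -0.19 ± 0.10 (SE, 95% interval -0.39 to 0.01, adjusted p = 0.252). Nr1h3 encodes LXR alpha, which induces sterol export and Srebf1 (chromosome 2, 91184061 to 91202834). Its 84.1, 89.9 and 82.0 CPM with atractylodin overlapped the 82.4, 98.2 and 94.8 CPM with vehicle (log2 fold change -0.12 ± 0.10, SE, 95% interval -0.33 to 0.09, adjusted p = 0.528). Gm13783 overlaps Nr1h3 on the same strand and Madd lies within 500 bases of its 3' end, so which reads belong to Nr1h3 is uncertain.

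Nr3c1 encodes the glucocorticoid receptor (chromosome 18, 39410545 to 39519421). It stood at 55.8, 60.9 and 49.8 CPM with atractylodin, against 62.98, 58.1 and 58.5 CPM with vehicle. The groups overlapped, and the log2 fold change was -0.10 ± 0.11 (SE, 95% interval -0.33 to 0.13, adjusted p = 0.645).

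**Figure D2:**
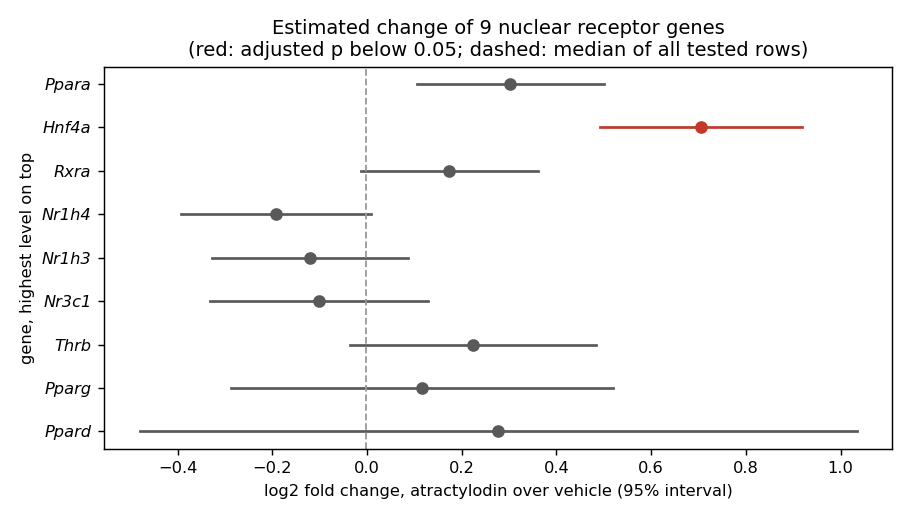
Log2 fold change of atractylodin over vehicle for each of the 9 genes, ordered by level from the top, with 95% intervals from the edgeR fit, Hnf4a in red as the one call, and the median of all tested rows as a dashed line. The interval of Hnf4a, 0.49 to 0.92, lies to the right of 0, and that of Ppard is the widest.

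Across the 9 genes the estimates were positive for 6 and negative for 3. Their median log2 fold change was 0.17, beside -0.0015 over all tested rows. The CPM ranges of both groups lay apart for 4 of the 9, namely Ppara, Hnf4a and Rxra on the higher side and Nr1h4 on the lower, beside 26.2% of all tested rows, 13.5% higher and 12.6% lower. The 9 genes summed to 1821 ± 5.46 CPM with atractylodin and 1478 ± 47.5 CPM with vehicle (SD, n = 3 each). Without Hnf4a the sums were 1343 ± 54.4 CPM with atractylodin and 1183 ± 22.2 CPM with vehicle. Within these sums Ppara, which was not called, had a mean of 773 CPM with atractylodin and 627 CPM with vehicle. Hnf4a made up 24.0% to 29.4% of the summed receptor tags in atractylodin livers and 18.9% to 21.1% in vehicle livers, and Ppara 38.9% to 44.3% in atractylodin livers and 42.2% to 42.7% in vehicle livers.

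The order of mean levels over the 6 libraries was Ppara, Hnf4a, Rxra, Nr1h4, Nr1h3, Nr3c1, Thrb, Pparg and Ppard. Ppara exceeded Hnf4a 1.81-fold and Hnf4a exceeded Rxra 1.68-fold, in 6 of 6 libraries each. This is an order of counted 3' tags. A bias in counting the tags of a gene would be shared by all 6 libraries and was not tested. Nr3c1 and Thrb were the one neighbouring pair whose CPM ranges overlapped, with Nr3c1 higher in 5 of 6 libraries. Pparg exceeded Ppard 7.18-fold.

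Ratios of counts within a library do not depend on library scaling, so each of the 8 other genes was also set against its Rxra count, a comparison chosen after the values were seen. Hnf4a had 1.95, 1.80 and 2.12 counts per Rxra count with atractylodin, against 1.47, 1.32 and 1.28 with vehicle. Nr1h4 had 0.432, 0.403 and 0.423 per Rxra count with atractylodin, against 0.594, 0.541 and 0.502 with vehicle. The ratios of Hnf4a, Nr1h4, Nr1h3 and Nr3c1 did not overlap between groups. Each reached an exact two-sided permutation p of 0.1, the smallest that 3 against 3 libraries can give (0.2 adjusted over the 8 ratios). All ratios share the Rxra count, and Rxra itself was at 237 to 251 CPM with atractylodin and 204 to 227 CPM with vehicle. A higher Rxra level lowers each ratio. In CPM the groups overlapped for Nr1h3 and Nr3c1, and 26.2% of all tested rows did not overlap. That share was not computed for ratios. For Hnf4a the groups' mean log2 ratios differed by 0.53, for Nr1h4 by -0.38. Ppara per Rxra was 3.40, 3.31 and 2.81 with atractylodin and 2.98, 2.97 and 2.75 with vehicle, and the groups overlapped (exact permutation adjusted p = 0.48).

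**Figure D3:**
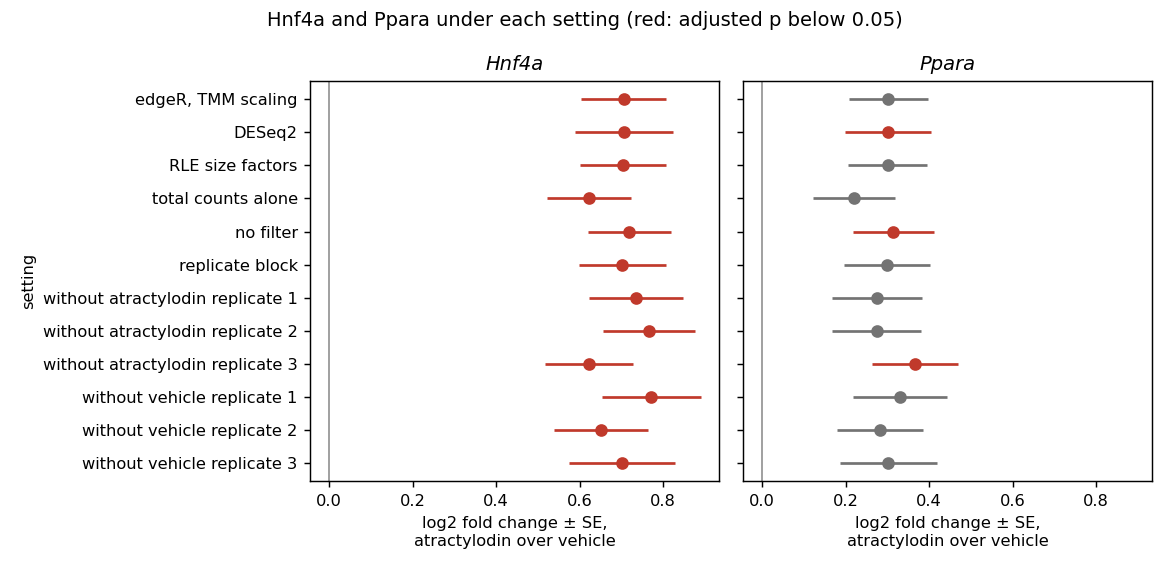
Log2 fold change of atractylodin over vehicle (with SE bars) for Hnf4a and Ppara under edgeR with TMM scaling and each of the 11 alternatives, red where the adjusted p was below 0.05. Hnf4a is red in every line, between 0.62 and 0.77, and Ppara in 3 of the 11 alternatives.

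Lists of target genes, coregulators and other nuclear receptors were written from textbook knowledge with earlier results of these data known. The glucocorticoid receptor list in particular holds Zbtb16, Lpin1 and Pck1, already known to be higher here, so the counts describe and support nothing by themselves. Of 148 distinct tested genes in the 10 lists 22 rose and 12 fell, and 11 genes stood in more than 1 list. Over all tested rows 3.92% were called higher and 3.33% lower, and these shares are the background for the counts of each list.

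Genes that HNF4 alpha is known to bind went both ways. Of 19 tested, 3 rose, 1 fell and 15 were not called, with a median log2 fold change of 0.07 (over all tested rows 3.92% were called higher, 3.33% lower, and the median was -0.0015). Pck1, the first committed enzyme of gluconeogenesis, had 3945, 3336 and 3650 CPM with atractylodin, against 804, 1373 and 1259 CPM with vehicle (adjusted p = 0.00247). The liver glycogen synthase gene Gys2 had 142, 134 and 114 CPM with atractylodin, against 80.7, 104 and 79.2 CPM with vehicle (adjusted p = 0.00758). The groups did not overlap for either gene. F11, a coagulation factor gene, fell to 14.8 ± 1.55 CPM with atractylodin, against 22.7 ± 2.28 CPM with vehicle (SD, n = 3, adjusted p = 0.0336). Apom, the apolipoprotein M gene, was named after its values were seen and rose 1.42-fold (adjusted p = 0.0365). F11 and Apom each missed the threshold in 5 of 6 fits without 1 library, and without vehicle 3 only 1 of the 3 rises was called. Apoa1, the most abundant of the list, stood at 9587 ± 994 CPM with atractylodin and 9902 ± 1456 CPM with vehicle (adjusted p = 0.863).

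Targets of PPAR alpha had 6 of 30 tested genes higher and 0 lower in edgeR, beside 3.92% of all rows called higher and 3.33% lower. In edgeR 2 were lower at an unadjusted p below 0.05, and DESeq2 called 0 lower. Their median log2 fold change was 0.17. The called genes with the smallest p were Angptl4, an inhibitor of lipoprotein lipase, and the omega-hydroxylase genes Cyp4a10 and Cyp4a14, paralogs that could share reads. Angptl4 had 161, 126 and 132 CPM with atractylodin, against 82.9, 92.9 and 67.9 CPM with vehicle (adjusted p = 0.00154). Cyp4a14 had 10425, 10470 and 7151 CPM with atractylodin, against 4858, 5025 and 5984 CPM with vehicle (adjusted p = 0.00454), a call not made without vehicle 2. Cyp4a10 was 1.55-fold higher (adjusted p = 0.00422). Beside Pparg, 2 of 7 tested PPAR gamma targets fell and 0 rose in edgeR (1 at an unadjusted p below 0.05, 1 in DESeq2), with a median of -0.74. The same shares of all rows, 3.33% lower and 3.92% higher, stand beside these counts. Mogat1, an acyltransferase of triglyceride synthesis, fell to 2.79, 1.98 and 2.00 CPM with atractylodin, against 7.54, 10.7 and 5.25 CPM with vehicle (adjusted p = 0.00283). The fatty acid transporter gene Cd36 fell 1.65-fold (adjusted p = 0.018), and was not called without vehicle 1 or without vehicle 2. The droplet coat gene Plin4 had 137, 83.6 and 106 CPM with atractylodin, against 79.7, 74.4 and 74.3 CPM with vehicle, and was not called (adjusted p = 0.0687). It was called higher in 4 of the 11 alternatives, and is the 1 rise in DESeq2. The count of falls was 4 without vehicle 3 and 1 without vehicle 1 or vehicle 2. Of the adipocyte markers Adipoq was at 0 in all 6 libraries, and Plin1, Lep and Retn had at most 4 counts in any library. Cfd, encoding adipsin, is both an adipocyte marker and in the PPAR gamma list, and it had 19 to 94 counts with atractylodin and 22 to 434 with vehicle. It stood at 9.37, 1.98 and 5.76 CPM with atractylodin, against 11.8, 37.3 and 8.65 CPM with vehicle, and was not called (log2 fold change -1.83 ± 0.87, SE, adjusted p = 0.334). The part of adipocyte RNA in the falls of this list was not tested.

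Of 15 LXR targets 3 fell and 0 rose in edgeR (median -0.21), beside 3.33% of all rows called lower and 3.92% higher. There were 0 higher at an unadjusted p below 0.05 and 0 rises in DESeq2. Srebf1, the lipogenic transcription factor gene, fell to 17.5, 32.0 and 23.8 CPM with atractylodin, against 62.98, 49.3 and 57.5 CPM with vehicle (adjusted p = 0.00391). The fatty acid synthase gene Fasn was lower by 1.83-fold (adjusted p = 0.00565) and the sterol exporter gene Abca1 1.31-fold (adjusted p = 0.0331), and Abca1 missed the threshold in 4 of 6 fits without 1 library. Apoe, the most abundant of these genes, stood at 21241 ± 713 CPM with atractylodin and 23866 ± 557 CPM with vehicle (SD, n = 3, adjusted p = 0.321). DESeq2 called 5 falls in this list.

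Among 11 tested genes that FXR induces, 2 fell and 0 rose in edgeR (median -0.08), beside 3.33% of all rows called lower and 3.92% higher. There was 1 higher at an unadjusted p below 0.05, with 0 rises in DESeq2. Abcb11, the bile salt export pump gene, fell to 95.2, 115 and 128 CPM with atractylodin, against 136, 158 and 165 CPM with vehicle (adjusted p = 0.0198). Apoc2, a cofactor of lipoprotein lipase, fell 1.31-fold (adjusted p = 0.0386). Both missed the threshold in 4 of 6 fits without 1 library, and neither passed without vehicle 2 or without atractylodin 2. Abcc2, the canalicular exporter of conjugated anions, stood at 543 ± 60.1 CPM with atractylodin and 452 ± 21.7 CPM with vehicle (adjusted p = 0.124), and the fibrinogen gene Fgb at 7464 ± 3171 CPM with atractylodin and 7950 ± 1976 CPM with vehicle (adjusted p = 0.923). Of 3 genes repressed through FXR 0 were called in edgeR, where 0 had an unadjusted p below 0.05. DESeq2 also called 0, with 1 lower at an unadjusted p below 0.05. Cyp7a1, the rate-limiting enzyme of bile acid synthesis, stood at 72.2, 156 and 36.9 CPM with atractylodin, against 218, 176 and 227 CPM with vehicle (adjusted p = 0.347). The groups did not overlap, but the atractylodin libraries differed widely among themselves. Cyp8b1, which makes cholic acid, was at 783 ± 390 CPM with atractylodin and 655 ± 142 CPM with vehicle (adjusted p = 0.805). Slc10a1, the bile acid importer gene, was at 340 ± 25.7 CPM with atractylodin and 348 ± 10.2 CPM with vehicle (adjusted p = 0.866).

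Genes that the glucocorticoid receptor is known to induce had higher estimates in 20 of 20 cases, also with the RLE and total count scalings, and in at least 18 of 20 when 1 library was left out. Over all tested rows 6231 of 12505 had a positive estimate and 3.92% were called higher. Of the 20, 6 rose, 14 were not called and the median log2 fold change was 0.82. Zbtb16, a zinc-finger transcription factor gene, had 31.4, 32.4 and 34.99 CPM with atractylodin, against 2.15, 4.98 and 5.34 CPM with vehicle (adjusted p = 1.15e-07). The clock gene Per1 had 35.2, 19.9 and 30.1 CPM with atractylodin, against 10.8, 12.0 and 9.54 CPM with vehicle (adjusted p = 0.000712). Pck1, given above, was the third by p. The metallothionein gene Mt1, the most abundant of the list, stood at 2450, 1803 and 6203 CPM with atractylodin and 2744, 1266 and 1616 CPM with vehicle, and was not called (adjusted p = 0.515).

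Thyroid hormone receptor targets had 3 rises and 1 fall among 9 tested (median 0.14), beside 3.92% of all rows called higher and 3.33% lower. The estimates were higher for 5 and lower for 4. Me1, the malic enzyme gene, had 155, 149 and 147 CPM with atractylodin, against 74.8, 102 and 97.7 CPM with vehicle (adjusted p = 0.000712). Slc17a2 had 146, 160 and 145 CPM with atractylodin, against 99.6, 108 and 111 CPM with vehicle (adjusted p = 0.0032). Klf9, a Kruppel-like factor gene that is also in the glucocorticoid list, rose 1.34-fold (adjusted p = 0.0191), and missed the threshold in 3 of 6 fits without 1 library. The fall, named after its value was seen, was of Gpd2, the mitochondrial glycerol phosphate dehydrogenase gene (adjusted p = 0.0356), which missed it in 5 of those 6 fits. Thrsp, also named after its values were seen, had the largest estimate of the list and was lower without a call. It stood at 34.6, 38.0 and 70.6 CPM with atractylodin, against 138, 192 and 103 CPM with vehicle (adjusted p = 0.126).

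**Figure D4:**
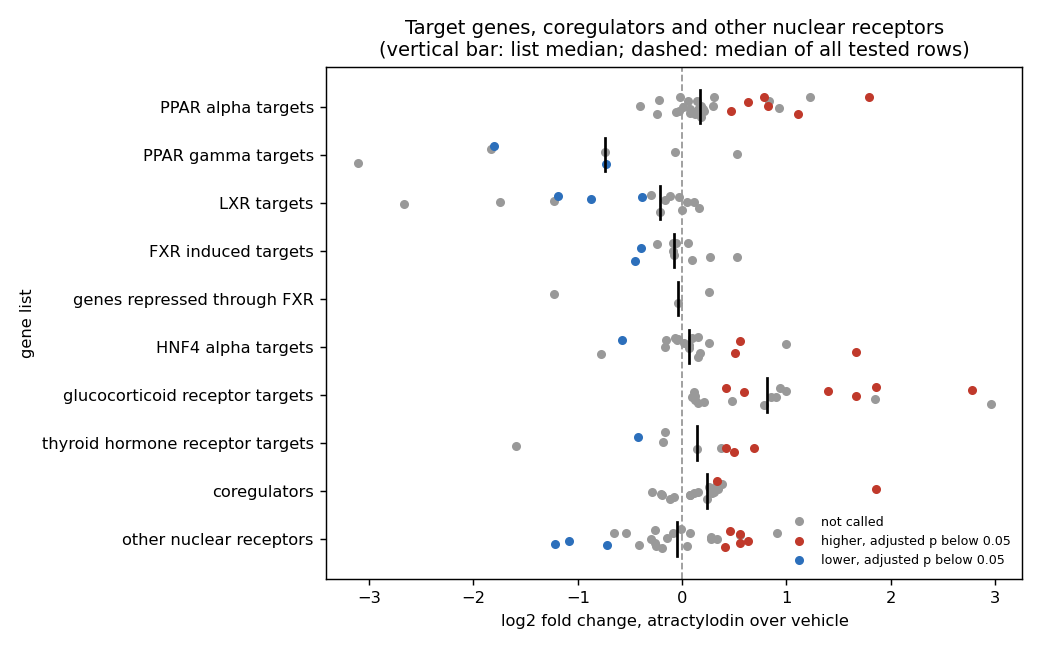
Log2 fold change of atractylodin over vehicle for every tested gene of the 10 lists, 1 line per list, with called rises in red, called falls in blue, genes not called in grey, a vertical bar at each list's median and a dashed line at the median of all tested rows. The glucocorticoid receptor list has all 20 points on the positive side, and HNF4 alpha targets lie on both sides around a median of 0.07.

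Of 19 coregulators, the proteins through which nuclear receptors act on chromatin, 2 rose and 0 fell in edgeR (median 0.24). Beside this, 3.92% of all rows were called higher and 3.33% lower. There were 0 lower at an unadjusted p below 0.05 and 0 falls in DESeq2. Of the rises, Lpin1 is also counted in the glucocorticoid receptor list and was already known to be higher here. Lpin1, a phosphatidate phosphatase that also coactivates PPAR alpha, had 299, 268 and 270 CPM with atractylodin, against 51.7, 101 and 70.3 CPM with vehicle (adjusted p = 0.00644). Ncor1, the corepressor of unliganded receptors, had 305, 286 and 306 CPM with atractylodin, against 245, 239 and 230 CPM with vehicle (adjusted p = 0.0271), and missed the threshold in 5 of 6 fits without 1 library. Med1, the Mediator subunit that receptors contact, stood at 68.4 ± 1.22 CPM with atractylodin and 57.7 ± 3.22 CPM with vehicle (SD, n = 3) and was not called (adjusted p = 0.137).

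Of 31 other nuclear receptor genes 26 were tested, of which 5 rose and 3 fell (median -0.05), beside 3.92% of all rows called higher and 3.33% lower. Nr2f2 encodes COUP-TFII, an orphan receptor that can bind the same repeat sites as HNF4 alpha. It fell to 82.5, 90.7 and 73.3 CPM with atractylodin, against 144, 125 and 139 CPM with vehicle (log2 fold change -0.72 ± 0.10, SE, adjusted p = 0.000344). Nr1i2, the xenobiotic receptor PXR, had 121, 111 and 120 CPM with atractylodin, against 78.1, 78.4 and 71.5 CPM with vehicle (adjusted p = 0.000568). The clock repressor gene Nr1d1 fell to 9.86, 14.4 and 11.8 CPM with atractylodin, against 27.99, 22.7 and 26.8 CPM with vehicle (adjusted p = 0.000994). Rora, an activator at the same clock elements, had 194, 185 and 197 CPM with atractylodin, against 136, 133 and 149 CPM with vehicle (adjusted p = 0.00454). These 4 calls held in every alternative tried. Other calls, chosen for naming once values were known, included rises of Nr1i3 and Nr1d2 and a fall of Rxrg. Nr1i3 rose 1.46-fold (adjusted p = 0.00449) and Nr1d2 1.33-fold (adjusted p = 0.0207). The call of Nr1d2 was missing in 4 of the 11 alternatives, 3 of them fits without 1 library, and those of Nr1i3 and Rxrg held in all 11. Rxrg, a paralog of Rxra, stood at 5.58, 6.58 and 3.42 CPM with atractylodin and 12.4, 11.2 and 12.5 CPM with vehicle (adjusted p = 0.00559). Scaling by total counts called 3 of these genes higher, as did leaving out vehicle 3.

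In bulk liver RNA, fewer cells of a type and less RNA per cell cannot be told apart. Of 6 hepatocyte markers 0 passed in edgeR or DESeq2 and 0 had an unadjusted p below 0.05. Their summed level was 58547 to 66877 CPM in atractylodin livers and 62691 to 68175 CPM in vehicle livers. Alb alone had a mean of 52148 CPM with atractylodin and 54155 CPM with vehicle, so the sum says little about the other markers. Apoa1, Apob and Tat also stand in the HNF4 alpha list, and Tat in the glucocorticoid receptor list as well. Ass1 had a mean of only 6.55 CPM with atractylodin and 5.81 CPM with vehicle. Of 3 tested cholangiocyte markers 2 fell, beside 3.33% of all rows called lower. These were Sox9 (mean 14.3 CPM with atractylodin, 28.3 with vehicle) and Spp1 (6.68 and 14.9 CPM). Epcam was not called (log2 fold change 0.05, adjusted p = 0.969), and Krt19 and Krt7, with at most 13 counts in any library, were not tested. The summed level of the 5 was 21.7 to 27.1 CPM with atractylodin and 41.6 to 51.7 CPM with vehicle. Most of this sum was Sox9 and Spp1, so it repeats their calls and adds nothing to them. Of 7 liver endothelial markers 1 rose and 1 fell, but both calls were missing without vehicle 1, vehicle 2, vehicle 3 or atractylodin 3. The rise was also missing without atractylodin 1, and the fall without atractylodin 2. The estimates were lower for 6 of the 7 (median log2 fold change -0.26). At an unadjusted p below 0.05 in edgeR 3 were lower and 1 higher. Their sums were 301 to 320 CPM with atractylodin and 334 to 340 CPM with vehicle. In edgeR and in DESeq2 0 of 10 macrophage markers passed (3 at an unadjusted p below 0.05 in edgeR), whereas 2 fell without atractylodin 1 and 1 fell without the filter. The estimates were lower for 9 of the 10, and they summed to 299 to 446 CPM with atractylodin and 364 to 517 CPM with vehicle. Likewise 0 of 6 stellate cell markers passed (1 higher at an unadjusted p below 0.05 in edgeR), whereas 1 fell without atractylodin 1. The estimates of this list were lower for 5 of the 6. Its sums were 369 to 505 CPM with atractylodin and 421 to 508 CPM with vehicle. The 1 tested adipocyte marker, Cfd, did not pass. The 5 of that list summed to 2.40 to 9.37 CPM with atractylodin and 8.65 to 37.3 CPM with vehicle, most of it Cfd. The part of these cell types in the receptor values was not tested.

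Genes whose log2 CPM followed each receptor most closely over the 6 libraries came from 3792 tested genes whose average log2 CPM was 5 or more. For Hnf4a they were Kmt2c (Pearson r = 0.998) and Zwint (0.987). For Ppara they were Hp1bp3 and Zfand6 (0.993 each), and for Rxra Insr (0.994) and 1810008I18Rik (0.989). Nr1h4 was followed by Sec61b (0.993) and Scamp3 (0.99), Nr1h3 by Ndufa10 (0.97) and Tob1 (0.965), Nr3c1 by Hjurp (0.993) and Dhrs7 (0.979), and Thrb by Bod1l (0.989) and Acsm3 (0.969). Map1lc3a was among the closest for both Ppard (0.991) and Pparg (0.98), the genes with their lowest value in vehicle 1, beside Zcchc7 (0.988) and Tor1aip1 (0.993). The points share libraries and depth, and with 6 of them such values describe only these libraries.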

How the data were processed

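Liver RNA was extracted with Trizol and made into Lexogen QuantSeq 3' libraries, as the labels' protocols state. Values in the deposited files are raw counts, 1 row per gene symbol, not normalized. Bowtie2, bedtools and mm10 are named in the submitters' processing notes. The annotation, strand setting and treatment of multiply matching reads are not given in the sources used here.

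Of 23282 rows, 12505 passed filterByExpr and were tested over the whole table with edgeR 4.0.16 (R 4.3.3; TMM, robust quasi-likelihood test without covariates), at a Benjamini-Hochberg adjusted p of 0.05. SE was taken as log2 fold change over root F. No pair of libraries agreed within sampling noise (chi-square per degree of freedom at least 2.75). Members and lists were chosen with earlier results of these data known. Named genes were all members, the 3 smallest p and the most abundant gene of each list, and the 2 best correlated genes per member. Floors and intervals of counts cover counting error only. Alternatives were DESeq2 1.42.0, RLE scaling, total counts, no filter, a replicate block and leaving out each library. GENCODE M21 (GRCm38, equal to mm10) gave gene positions, and RefSeq (GRCm38.p6) the promoter windows. Figures used matplotlib 3.10.9. The values of 1 called gene among the other nuclear receptors are not reported here.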

Additional observations from a re-analysis of the deposited data

How the results depend on the processing

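Hnf4a kept its direction and its call in all 11 alternatives. Ppara kept its direction in all 11 and was called by DESeq2 (log2 fold change 0.30), without the filter (0.31) and without atractylodin 3, with 0.27 to 0.37 over the fits that left out 1 library, so 2 receptors were called by DESeq2 and without the filter, and 1 to 2 in those fits. Pparg ranged there from -0.048 to 0.26, and genes of the lists that were not called changed sign in some of these fits, namely Apoa1 (-0.16 to 0.023), Cyp8b1 (-0.20 to 0.54), Fgb (-0.49 to 0.12) and Slc10a1 (-0.094 to 0.0095).

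Leaving out 1 library gave 467 to 751 calls over all rows, 236 to 400 higher and 215 to 362 lower. In the same fits the falls of PPAR alpha targets numbered 0 to 1, of PPAR gamma targets 1 to 4 (rises 0 to 1), of FXR induced targets 0 to 1, of HNF4 alpha targets 0 to 1 (rises 1 to 3) and of thyroid hormone receptor targets 0 to 1. Rises of coregulators numbered 1 to 2 and of other nuclear receptors 3 to 5. These fits had fewer samples. Total counts alone called 312 rows higher and 707 lower, 1 fall of PPAR alpha targets, 1 rise of coregulators and 3 rises of other nuclear receptors. No filter gave 1 fall of PPAR alpha targets and 1 rise of PPAR gamma targets. DESeq2 gave 5 falls of LXR targets, 2 falls of thyroid hormone receptor targets, 0 falls of HNF4 alpha targets and 1 rise of PPAR gamma targets. The cause of these moves was not tested.

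Deviations from the group means of same-numbered libraries correlated at -0.03, -0.09 and 0.02 for numbers 1, 2 and 3. Those of differently numbered libraries correlated at -0.08 to 0.11. With 3 libraries per group these values cannot decide whether the libraries were paired. With the replicate number as a block 811 rows were called against 906 without it, Hnf4a was again the 1 receptor called, PPAR gamma targets had 1 rise and 1 fall, HNF4 alpha targets 0 falls and coregulators 1 rise. The lowest counts of the 9 receptors were those of Ppard and Pparg in vehicle 1, at 2 and 23.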
